A study of Mus musculus with 6 samples.

Results

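The genes described here are the replication-dependent histone genes, taken as every gene in the deposited count table whose symbol begins with Hist1h, Hist2h, Hist3h or Hist4h. There were 68 of them among 24407 genes: 6 for the linker histone H1, 18 for H2A, 19 for H2B, 12 for H3 and 13 for H4. The H2B entry Hist3h2bb-ps is named as a pseudogene. They were counted in RNA of islets of Langerhans, which hold the hormone cells of the pancreas, from C57BL/6 mice aged 70 weeks on regular chow. Wild-type mice (WT) were compared with lmna LCS mice, named KIKI in the count table and described in the series title as expressing exclusively lamin C. Each genotype had 3 libraries and each library was made from islets pooled from 3 mice; sex was not stated. The labels give the molecule as poly(A) RNA and name a stranded TruSeq RNA kit. The comparison asks how the histone genes differ between LCS and WT islets.

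Histone proteins wrap DNA into nucleosomes: H2A, H2B, H3 and H4 form the core, and H1 binds the DNA between cores. Genes of the replication-dependent set lie in clusters, are transcribed mainly when DNA is copied, and make messenger RNAs that end in a conserved stem-loop rather than in a poly(A) tail. The stem-loop is bound by the protein Slbp, and the U7 small nuclear RNA guides the cut after it. In cells that no longer divide, some of these genes, among them Hist1h1c, Hist1h2bc and Hist2h2be, are known to give longer, polyadenylated transcripts. Adult islet cells divide rarely.

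The stem-loop was looked for in the GENCODE M21 transcripts (GRCm38), which were found for 67 of the 68 genes. The letters searched were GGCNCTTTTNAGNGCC, in the sense direction of each transcript, and 42 of the 67 genes had them in an annotated transcript. In all 9 H4 genes that had the letters the stem began GGCCCT, and in all 33 other genes that had them it began GGCTCT. The sequences below are of genes whose values are described further on, from the GENCODE M21 transcripts, 5′ to 3′ as DNA letters, with the matched 16 bases in capitals.
Hist1h1e: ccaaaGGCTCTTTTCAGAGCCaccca
Hist1h1c: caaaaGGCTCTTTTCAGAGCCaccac
Hist2h2ac: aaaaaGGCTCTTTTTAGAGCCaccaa
Hist3h2ba: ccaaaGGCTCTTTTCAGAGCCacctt
Hist1h3f: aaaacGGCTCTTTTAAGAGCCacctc
Hist1h4d: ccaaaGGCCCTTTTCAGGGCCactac
Hist2h4: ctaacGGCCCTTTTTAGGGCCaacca
The genes without a match included Hist2h2bb, Hist1h2ak and Hist1h2bn, whose annotated transcripts were 381, 393 and 381 bases long. A transcript annotated without its end cannot show the letters, so a missing match does not mean that the gene has no stem-loop.

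Library totals were 26123654 to 68036676 counts. The rows Rn45s, Lars2 and Mir6236, which carry ribosomal RNA reads, held 53.4% ± 0.999 of counts in LCS and 12.1% ± 5.73 in WT (SD, n = 3). An exact permutation test, two-sided, gave p = 0.1, the lowest that 3 against 3 libraries allow. Levels below are therefore CPM (counts scaled to a common library size) after TMM, a method that sets the bulk of genes equal between libraries. All 12 islet markers looked at were present. Of them edgeR called 1 higher in LCS, Ppy, and 0 without LCS replicate 3, and DESeq2 called 2 higher and 1 lower. Sst, not called by edgeR, had 1613 to 2097 CPM in LCS and 1209, 412 and 238 CPM in WT (replicates 1 to 3), and Slc2a2 had a log2 fold change of -0.77 (edgeR adjusted p = 0.134). All 14 acinar markers were higher in LCS in edgeR, 7 without LCS replicate 3 and 8 without LCS replicate 2, with a summed level of 496.5 to 879.4 CPM in LCS and 135.2 to 215.3 CPM in WT. The summed level of 11 immune markers was 45.0 to 49.2 CPM in LCS and 35.0 to 39.4 CPM in WT, and edgeR called 1 of the 10 tested higher, Lyz2, at 14.2 against 5.08 CPM, and 0 without LCS replicate 1. Cd79b was also higher in every LCS library, at 1.62 against 0.561 CPM, but was not called (edgeR adjusted p = 0.0913). The means of Cd79a, Cd3d and Ms4a1 were higher in LCS with overlap. Adgre1 went the other way, at 1.26 against 1.95 CPM with no overlap, as did the means of Ptprc, Itgam, Cd68 and Laptm5, which overlapped. Of 6 red cell markers, 4 were at 0 in every library. The part that ribosomal reads, acinar cells or immune cells have in the histone values was not tested. In whole islets a change in the number of cells of a type and a change in RNA per cell cannot be told apart.

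The summed level of histone transcripts was higher in every LCS library than in any WT library. Summed over all 68 genes they reached 128.5, 170.6 and 146.8 CPM in LCS (replicates 1 to 3) against 91.7, 45.0 and 40.4 CPM in WT (replicates 1 to 3). WT replicate 1 lay closest to the LCS libraries. The mean was 148.6 ± 21.1 CPM in LCS and 59.1 ± 28.4 CPM in WT (SD, n = 3), a ratio of 2.52. This ratio was 3.48 without WT replicate 1 and 1.21 when libraries were scaled by their totals, ribosomal reads included; no p is given for the sum because the genes were chosen with results known. The same total scaling lowered the median log2 fold change of all tested genes from 0.01 to -1.06.

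Of the 68 genes, 12 had no count in any library, 28 had counts but did not pass the filter on low counts, and 28 were tested. Of those tested, 13 rose in LCS (46.4%), where 2.06% of all 14539 tested genes did, and none fell, where 0.144% of all genes did (edgeR quasi-likelihood test, Benjamini-Hochberg adjusted p under 0.05). At an unadjusted p under 0.05, 2 members were lower, Hist2h2be and Hist1h2ad, while DESeq2 called 1 lower, Hist2h2be, and limma-voom called 0 lower. Of all 14539 tested genes DESeq2 called 571 lower and limma-voom called 30 lower. The median log2 fold change of the tested members was 1.79, also with Hist1h2ak at its lower bound, and that of all tested genes 0.01. In 18 of the 28 every LCS library lay above every WT library, which held for 14.6% of all tested genes, and in 2 every LCS library lay below, which held for 12% of all. A gene can pass the filter through the genotype in which it is high, so these counts describe the tested members and not the 68.

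**Figure D1:**
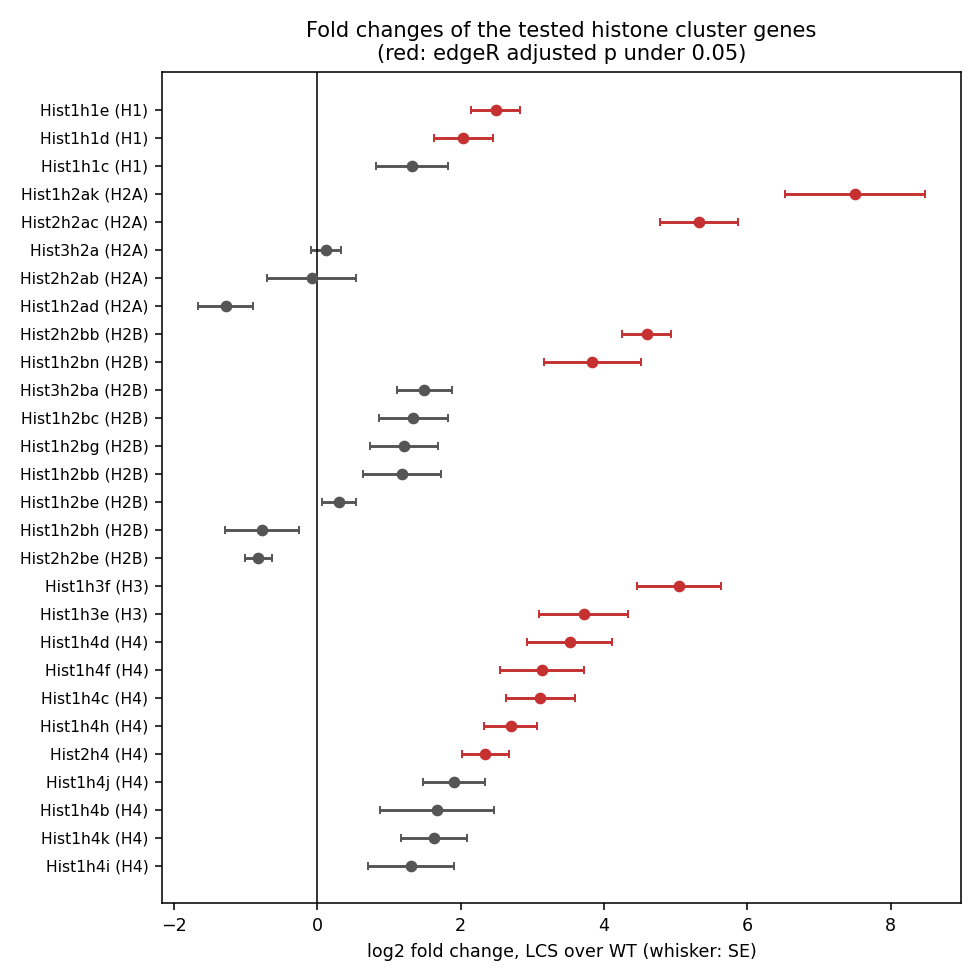
Fold change between LCS and WT in log2 units (horizontal axis) with its standard error for each of the 28 tested histone genes, grouped by histone type; red marks an edgeR adjusted p under 0.05. The 2 H3 and 9 H4 genes all lie above 0, H2A and H2B genes lie on both sides, and the value of Hist1h2ak depends on the prior count because all its WT counts are 0.

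The histone types differed in how far their sums lay apart. H3 sums were 4.30, 5.99 and 4.94 CPM in LCS (replicates 1 to 3) against 0.645, 0.370 and 0.235 CPM in WT (replicates 1 to 3), a ratio of means of 12.2. H4 sums were 26.8, 30.8 and 28.1 CPM in LCS and 8.50, 3.31 and 2.33 CPM in WT, a ratio of 6.07. H1 sums were 42.4, 59.1 and 43.2 CPM in LCS and 32.5, 9.47 and 7.29 CPM in WT, a ratio of 2.94. In these 3 types the WT libraries lay below the LCS libraries by a margin that was narrowest for WT replicate 1. Without that library the ratios were 16.8 for H3, 10.2 for H4 and 5.75 for H1, and scaled by library totals they were 5.88, 2.94 and 1.44. The ratios were smaller for H2B, 58.6 ± 9.34 against 32.7 ± 10.8 CPM, and for H2A, 8.08 ± 1.09 against 4.83 ± 0.116 CPM (SD, n = 3), namely 1.79 and 1.67. Neither type overlapped between genotypes, but scaled by library totals the H2B and H2A ratios fell to 0.859 and 0.798. Without Hist3h2a the H2A ratio was 3.18, and without Hist1h1c the H1 ratio was 5.28. The differences among types were not tested.

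**Figure D2:**
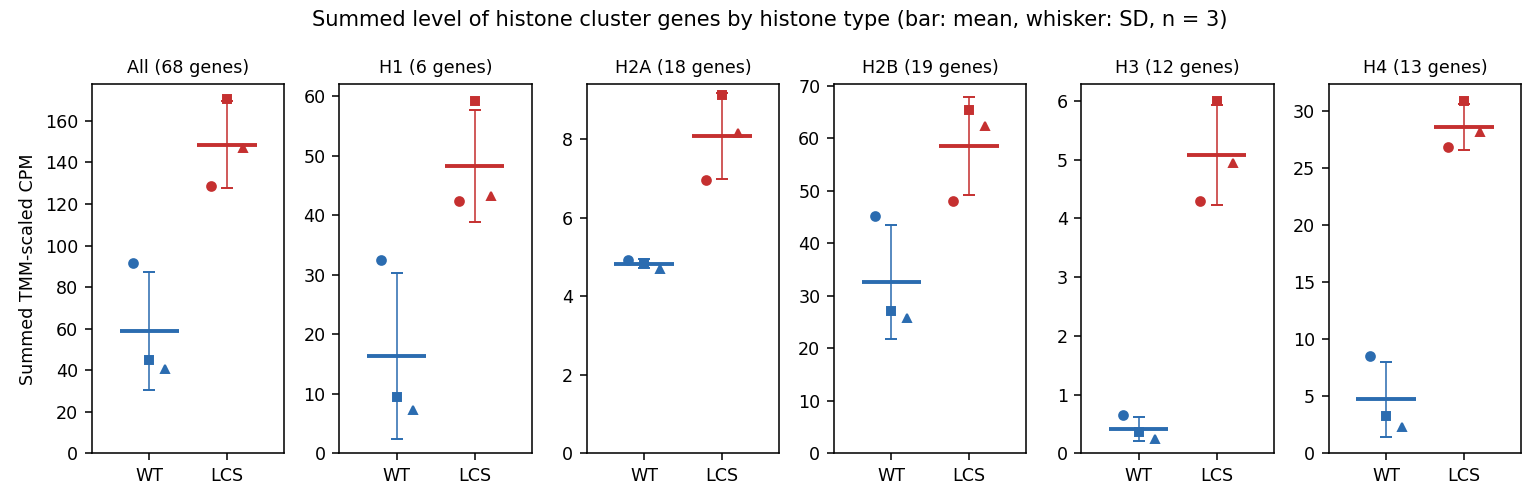
Summed TMM-scaled CPM (vertical axis from 0, a separate scale in each panel) of all histone cluster genes and of each histone type, 1 symbol per library (circle, square and triangle for replicates 1 to 3), with the mean as a bar and the SD as a whisker. LCS libraries lie above WT libraries in every panel; the ratio of means is largest for H3 ( 5.08 and 0.417 CPM) and WT replicate 1 is the highest WT library for each type.

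As a share of all histone counts, H3 made up 3.41% ± 0.0898 in LCS and 0.702% ± 0.12 in WT, and H4 19.4% ± 1.42 and 7.46% ± 1.76 (SD, n = 3). H2B went the other way, with 39.4% ± 2.74 of histone counts in LCS and 57.8% ± 7.61 in WT. None of these 3 shares overlapped between genotypes. H1 and H2A shares did overlap. The 3 genes known for polyadenylated transcripts, Hist1h1c, Hist1h2bc and Hist2h2be, together held 51.4% ± 3.26 of histone counts in LCS and 67.2% ± 4.17 in WT. The lower share came from Hist2h2be, with 4.93% ± 0.85 in LCS and 25.7% ± 12.5 in WT. The shares of Hist1h1c (23.0% in LCS and 20.5% in WT) and Hist1h2bc (23.5% and 20.96%) overlapped between genotypes, with the higher mean in LCS.

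By locus, the ratio of LCS to WT sums was 3.05 for the 54 Hist1 genes on chromosome 13, 1.30 for the 10 Hist2 genes on chromosome 3 and 1.57 for the 3 Hist3 genes. Scaled by library totals these were 1.48, 0.619 and 0.751, so that the Hist2 and Hist3 ratios turned below 1. Without WT replicate 1 the Hist1 ratio was 5.23. The Hist2 sum combined genes with values on both sides of 0. Its sums were 18.2, 19.1 and 17.4 CPM in LCS and 12.0, 14.6 and 15.4 CPM in WT, and its 5 tested genes ranged in log2 fold change from -0.82 for Hist2h2be to 5.33 for Hist2h2ac. Without Hist2h2be, its member with the highest counts, the Hist2 ratio was 9.29.

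Among the H1 genes, which code for linker histones, 2 of 3 tested rose, where 2.06% of all tested genes did. Hist1h1e had 10.2, 10.3 and 9.12 CPM in LCS (replicates 1 to 3) against 2.91, 1.18 and 1.12 CPM in WT (replicates 1 to 3). It rose 5.61-fold (log2 2.49, SE 0.35, edgeR adjusted p = 0.00948; log2 3.09 without WT replicate 1). Hist1h1d rose 4.11-fold, from 0.419 to 1.37 CPM in WT to 2.94 to 3.79 CPM in LCS (log2 2.04, edgeR adjusted p = 0.0362; log2 2.70 without WT replicate 1). The H1 gene with the highest counts, Hist1h1c, had 28.7, 44.5 and 30.3 CPM in LCS and 28.1, 7.80 and 5.54 CPM in WT. WT replicate 1 was close to the LCS libraries for this gene while the other WT libraries were far below, and it did not pass the test (log2 1.32, SE 0.50, edgeR adjusted p = 0.157). Without WT replicate 1 it was called higher (log2 2.37, edgeR adjusted p = 0.000473). The H1 genes Hist1h1a and Hist1h1b were too low to be tested. Each had a higher CPM in every LCS library than in any WT library, as 12.1% of all genes with a count did. Hist1h1a had only 1, 2 and 5 counts in LCS replicates 1 to 3 and 0 in each WT library. Hist1h1b had 17, 24 and 12 counts in LCS and 5, 3 and 1 in WT. Hist1h1t, a testis linker histone, had 4 counts in all.

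Both tested H3 genes rose, where 2.06% of all tested genes did. Their counts were 1 to 18 in WT libraries and 22 to 149 in LCS libraries. They passed the filter through the LCS libraries, so a rise in both says little about the 12 H3 genes. Hist1h3f had 1.19, 1.51 and 0.702 CPM in LCS (replicates 1 to 3) against 0.0416, 0.0247 and 0.0261 CPM in WT (replicates 1 to 3), and rose 33.2-fold (log2 5.05, SE 0.58, edgeR adjusted p = 0.00304). The WT values rest on 1 or 2 counts per library. Hist1h3e had 1.71, 2.93 and 2.33 CPM in LCS and 0.374, 0.0987 and 0.0261 CPM in WT, and rose 13.1-fold (log2 3.72, SE 0.62, edgeR adjusted p = 0.0188; log2 5.14 without WT replicate 1). Of the 10 other H3 genes 2 had no count and 8 were below the filter, among them Hist1h3a, at 0 in all WT libraries with 29 counts in LCS, which is at least 11.1-fold higher against a floor of 3 counts over the WT group.

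H4 genes all code for the same core histone, and 5 of 9 tested members rose, where 2.06% of all tested genes did. Hist1h4d, the one with the highest counts, had 7.73, 7.58 and 8.45 CPM in LCS (replicates 1 to 3) against 1.52, 0.321 and 0.157 CPM in WT (replicates 1 to 3), and rose 11.5-fold (log2 3.52, SE 0.59, edgeR adjusted p = 0.019). The LCS libraries were alike and WT replicate 1 was the highest WT library. Hist1h4h had 4.26, 5.56 and 6.03 CPM in LCS and 1.25, 0.740 and 0.418 CPM in WT, and rose 6.49-fold (edgeR adjusted p = 0.00796). Hist2h4, which lies in the Hist2 cluster, had 3.11, 2.49 and 3.19 CPM in LCS and 0.790, 0.493 and 0.418 CPM in WT, and rose 5.09-fold (edgeR adjusted p = 0.0096). In both of these the groups were apart in every library. Hist1h4c rose 8.65-fold and Hist1h4f 8.79-fold (edgeR adjusted p = 0.0139 and 0.0278). In WT replicates 1 to 3 Hist1h4c had 55, 12 and 13 counts and Hist1h4f only 1, 3 and 4. The log2 fold changes of the 4 others, not called by edgeR with all libraries, were 1.91 for Hist1h4j (SE 0.43, edgeR adjusted p = 0.054), 1.67 for Hist1h4b, 1.63 for Hist1h4k and 1.31 for Hist1h4i. DESeq2 called Hist1h4j (adjusted p = 0.00342) and Hist1h4k (0.0122) higher, and limma-voom called Hist1h4j (0.0425). Without WT replicate 1 edgeR called all 4, at log2 fold changes of 2.46 for Hist1h4j, 4.02 for Hist1h4b, 2.29 for Hist1h4k and 2.29 for Hist1h4i. In that fit 12.5% of all tested genes were called higher. The values of called genes moved too: without that library Hist1h4d was at 5.02 and Hist1h4c at 4.04.

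H2A genes split. Hist2h2ac had 1.36, 2.63 and 1.98 CPM in LCS (replicates 1 to 3) against 0.0832, 0.0247 and 0.0261 CPM in WT (replicates 1 to 3), and rose 40.2-fold (log2 5.33, SE 0.54, edgeR adjusted p = 0.00148; log2 6.14 without WT replicate 1). Its WT values rest on 4, 1 and 1 counts. Hist1h2ak had 0.454, 0.550 and 0.702 CPM in LCS, from 63 counts, and no count in WT, which makes it at least 24.0-fold higher against a floor of 3 counts over the WT group (edgeR adjusted p = 0.0129). These were the 2 H2A genes that rose of 5 tested, where 2.06% of all tested genes rose. Hist3h2a, the H2A gene with the highest counts, had 3.46, 4.14 and 3.73 CPM in LCS and 3.64, 3.58 and 3.21 CPM in WT, and its groups overlapped (log2 0.12, SE 0.21, edgeR adjusted p = 0.748; -0.94 when scaled by library totals). Hist1h2ad had 0.385, 0.334 and 0.287 CPM in LCS and 0.728, 0.913 and 0.810 CPM in WT, with no overlap and all LCS libraries lower, but it did not pass the test (log2 -1.28, SE 0.38, edgeR adjusted p = 0.0983). Hist2h2ab was at -0.08 (SE 0.62), and its sign changed with limma-voom and without single libraries.

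H2B genes split as well, with 2 of 9 tested higher, where 2.06% of all tested genes were. Hist2h2bb had 5.10, 5.54 and 5.39 CPM in LCS (replicates 1 to 3) against 0.312, 0.123 and 0.209 CPM in WT (replicates 1 to 3). It rose 24.2-fold and had the smallest p of all histone genes (log2 4.59, SE 0.34, edgeR adjusted p = 0.000155). Hist1h2bn rose 14.3-fold from 0 to 0.0624 CPM in WT to 0.550 to 0.702 CPM in LCS (edgeR adjusted p = 0.0214). Hist2h2be had 7.59, 7.80 and 6.35 CPM in LCS and 10.6, 13.7 and 14.2 CPM in WT. Every LCS library lay below every WT library for this gene, the reverse of Hist2h2bb, and it missed the threshold (log2 -0.82, SE 0.18, edgeR adjusted p = 0.0538; called lower by DESeq2 with adjusted p = 0.00257 and without WT replicate 1 in edgeR with 0.00574). It held 12.6% ± 2.89 of H2B counts in LCS and 43.0% ± 17.1 in WT (SD, n = 3). Hist1h2bc, the H2B gene with the highest counts, had 25.6, 41.0 and 38.8 CPM in LCS and 27.2, 8.32 and 5.98 CPM in WT. WT replicate 1 lay among the LCS values for this gene, which did not pass the test (log2 1.34, SE 0.48, edgeR adjusted p = 0.136), and without that library it was called higher (log2 2.30, edgeR adjusted p = 0.000482). Hist3h2ba had a log2 fold change of 1.49 (SE 0.38, edgeR adjusted p = 0.0716). It was called higher by DESeq2 (adjusted p = 0.00421), by limma-voom (0.0473), and by edgeR with no filter (0.0355) or without WT replicate 1 (0.00122, log2 2.14). Hist1h2be, at 0.30 (SE 0.23), had 3.04 to 4.78 CPM in LCS and 3.12 to 3.37 CPM in WT, which overlapped (-0.78 when scaled by library totals).

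**Figure D3:**
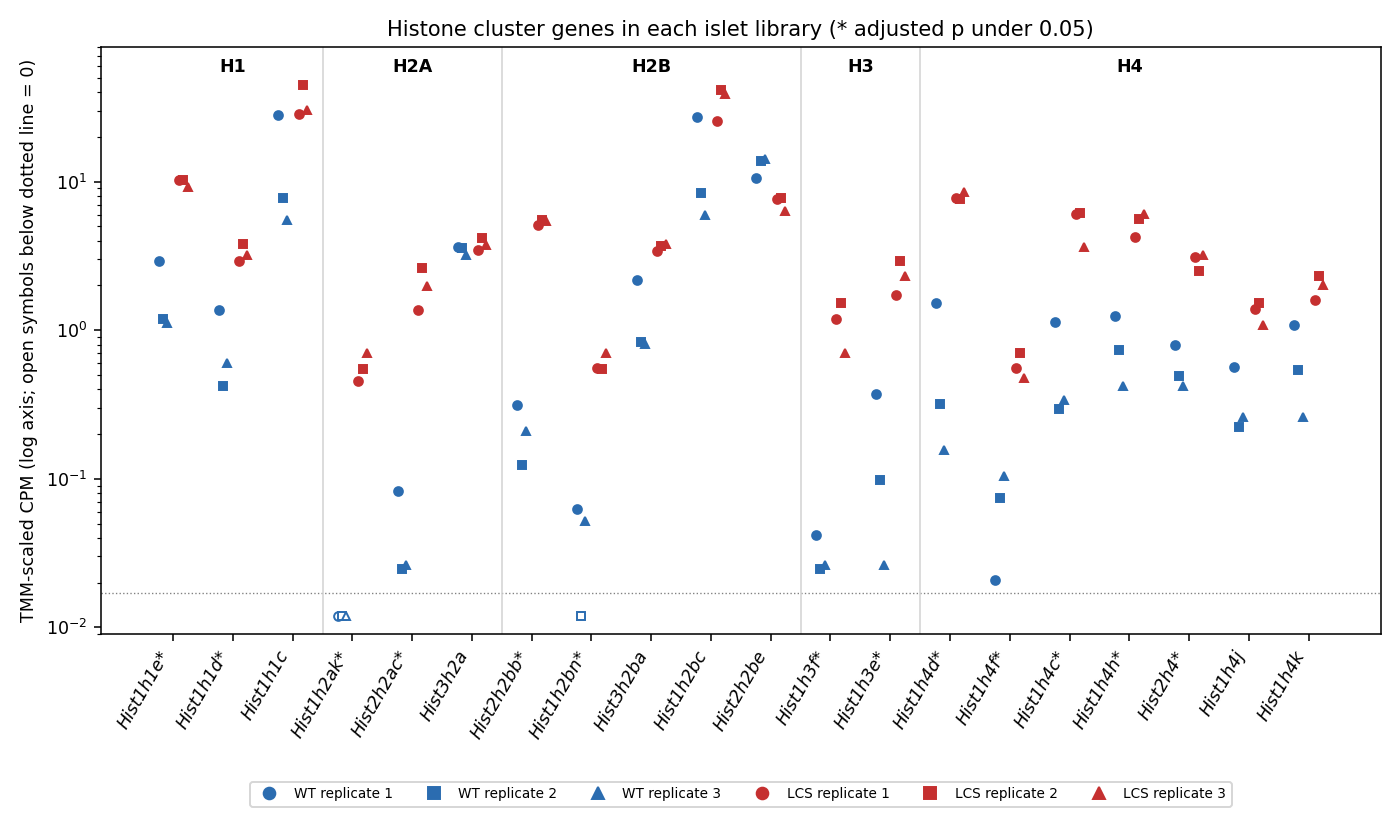
TMM-scaled CPM (log axis) of 20 histone genes by library (blue for WT, red for LCS), with a symbol for each replicate and open symbols below the dotted line for 0; an asterisk marks an edgeR adjusted p under 0.05. The 13 genes with an asterisk show no overlap between genotypes, Hist2h2be is lower in all LCS libraries, and WT replicate 1 (blue circle) lies among or close to the LCS values for Hist1h1c and Hist1h2bc.

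Some histone genes, mostly an H2A beside an H2B gene, start back to back and are read away from each other. In the GENCODE M21 annotation 13 such neighbours were found with under 1000 bases between the starts, and in 3 of them both genes were tested. Hist1h2ak and Hist1h2bn, 296 bases apart, both rose. Hist2h2ac and Hist2h2be, on chromosome 3 with 239 bases between their starts, had log2 fold changes of 5.33 and -0.82. Hist1h2bh and Hist1h3f, 660 bases apart, had -0.77 (SE 0.52, edgeR adjusted p = 0.385) and 5.05. The genotypes overlapped for Hist1h2bh. With 1 library left out its value ran from -1.39, without LCS replicate 2, to -0.50. In the last 2 sets the neighbours' values lay on opposite sides of 0, and the difference within each was not tested.

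**Figure D4:**
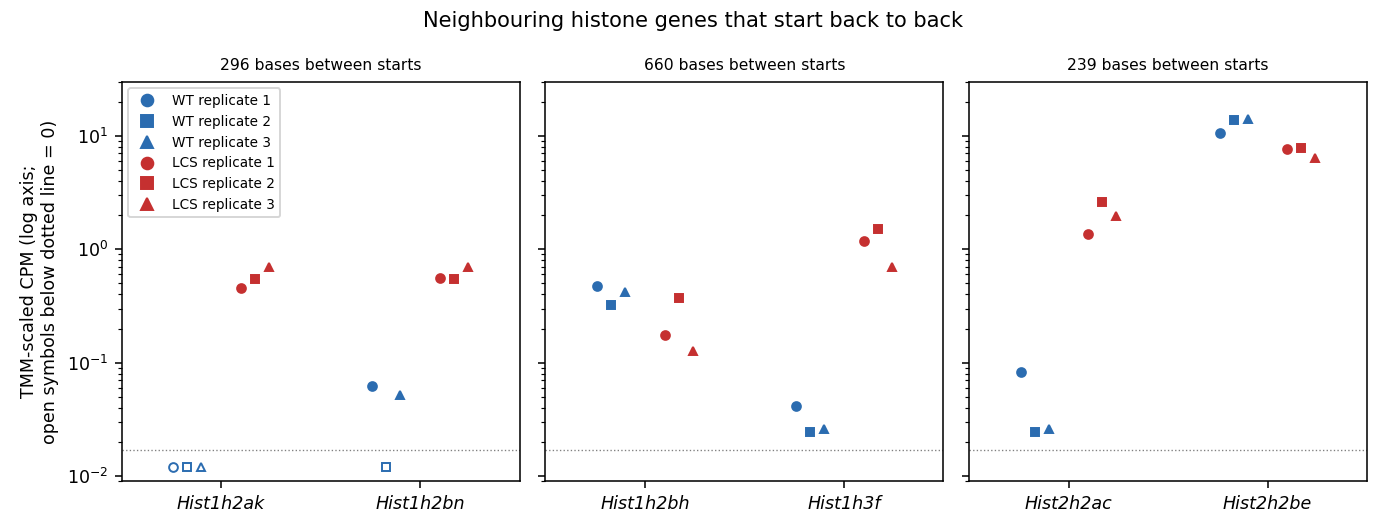
TMM-scaled CPM (log axis) per library of the 3 sets of neighbouring histone genes that start back to back and were both tested (blue for WT, red for LCS), with open symbols below the dotted line for 0. On the left both genes are higher in LCS; on the right Hist2h2ac is higher in every LCS library and Hist2h2be lower in every LCS library.

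The letters of the promoters were compared between members. RefSeq promoters (GRCm38.p6, 250 bases before to 50 after the start) were matched for 62 of the 68 genes, and 3 are shown, for the H2A gene of the Hist2 neighbours, for the H2B gene with the smallest p and for the H4 gene with the highest counts. Capitals mark 4 motifs on either strand: the TATA box spelled TATAAA, the box that binds NF-Y spelled CCAAT, the octamer spelled ATTTGCAT and the H4 element core spelled GGTCCG.
Hist2h2ac, chr3:96220831-96221130, minus strand: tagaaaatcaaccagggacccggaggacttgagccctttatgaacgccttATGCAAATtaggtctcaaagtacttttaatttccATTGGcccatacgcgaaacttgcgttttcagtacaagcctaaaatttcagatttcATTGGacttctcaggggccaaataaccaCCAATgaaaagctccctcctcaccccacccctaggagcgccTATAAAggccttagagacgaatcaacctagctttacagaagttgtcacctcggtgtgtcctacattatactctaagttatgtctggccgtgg
Hist2h2bb, chr3:96269450-96269749, plus strand: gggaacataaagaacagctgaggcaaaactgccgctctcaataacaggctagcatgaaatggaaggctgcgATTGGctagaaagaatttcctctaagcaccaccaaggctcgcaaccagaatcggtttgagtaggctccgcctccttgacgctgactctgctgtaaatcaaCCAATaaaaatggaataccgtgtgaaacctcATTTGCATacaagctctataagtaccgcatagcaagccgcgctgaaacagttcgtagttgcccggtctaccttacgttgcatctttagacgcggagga
Hist1h4d, chr13:23581318-23581617, plus strand: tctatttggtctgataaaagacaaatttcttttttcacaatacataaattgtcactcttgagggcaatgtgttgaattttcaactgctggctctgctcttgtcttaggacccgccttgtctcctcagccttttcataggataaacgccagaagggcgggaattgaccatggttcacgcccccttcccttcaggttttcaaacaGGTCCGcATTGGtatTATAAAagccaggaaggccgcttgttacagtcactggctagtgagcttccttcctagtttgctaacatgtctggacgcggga
The letters differed by histone type. GGTCCG was in 11 of 12 H4 promoters (91.7%) and in 9.44% of the promoters of all 27025 genes. ATTTGCAT was in 7 of 16 H2B and 7 of 18 H2A promoters, in none of the 28 H1, H3 and H4 promoters and in 1.97% of all. AAACACA, the AC box of H1 genes, was in 5 of 6 H1 promoters and in 8.22% of all. CCAAT was in 53 of 62 members and TATAAA in 35 of 62, against 41.1% and 15.7% of all. By type, CCAAT was in every matched H1, H2A, H2B and H3 promoter but in only 3 of 12 H4 promoters (25%), among them Hist1h4d. Among members that rose and tested members that did not pass, TATAAA was in 7 of 11 and 8 of 13, CCAAT in 9 of 11 and 9 of 13, and GGTCCG in 4 of 11 and 5 of 13. These matches are descriptions and not binding sites.

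The annotated transcript ends differed among the members. A poly(A) signal, spelled AATAAA with ATTAAA allowed as a variant, stood in the last 40 bases of an annotated transcript of 9 tested members. Of these 2 rose, Hist1h4h and Hist2h4, and the median log2 fold change of the 9 was 1.32 (range -0.82 to 2.70). Of the 19 tested members without the signal 11 rose, with a median of 2.49 (lowest -1.28), where 2.06% of all tested genes rose. Some of the 19 passed the filter on low counts through the LCS libraries. Hist1h2ak had no WT count and Hist1h2bn had 3, 0 and 2 counts in WT replicates 1 to 3. The split in calls and medians may therefore rest partly on the filter. Among the 19 were Hist2h2bb, Hist1h2bn and Hist1h2ak, which rose, and Hist1h4k, which was not called. Their annotated transcripts, of 381, 381, 393 and 312 bases, may stop before the end of the messenger RNA. A transcript annotated without its end cannot show a signal, so the split may rest partly on the annotation. Hist2h2be has the signal in a transcript of 2620 bases with no match to the stem-loop letters. Hist1h1c has it in a transcript that goes on for 840 bases after the stem-loop. Hist1h2bc, also known for polyadenylated transcripts, has neither the signal nor the stem-loop letters in its annotated transcript of 1156 bases. The annotation does not say which ends were in use in these islets, the feature was chosen after the values were seen, and the difference was not tested.

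Histone genes share sequence, which limits what a count of a single member can say. Of the 67 genes with a transcript, 32 had over 50% of their 50-base stretches in a transcript of another gene as well. This held for 10 of the 12 genes with no count in any library, such as Hist2h2aa1 and Hist2h2aa2. It also held for 4 of the 13 genes that rose: Hist1h2ak (52.3% of its stretches shared), Hist1h2bn (86.5%), Hist1h3e (73.4%) and Hist2h2bb (53.6%). The sources used here do not say how reads with several matches were counted, nor which strand setting was used, so values of these genes are uncertain. Among the genes with little shared sequence were Hist2h4 (1.01%), which rose, and Hist2h2be (0%), which did not pass the test. With the genes of a type summed into 1 row before the fit, the log2 fold changes were 3.58 for H3 (SE 0.36), 2.59 for H4 (SE 0.40), 1.55 for H1 (SE 0.47), 0.84 for H2B (SE 0.23) and 0.75 for H2A (SE 0.19).

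Of the 28 genes with counts that did not pass the filter, 14 had every LCS library above every WT library. Over all 56 members with a count this was the case for 32, where it held for 12.1% of all genes with a count, and 2 had every LCS library below, where it held for 10.2%. With no filter all 56 could be tested, and 20 rose and 1, Hist2h2be, fell (2.95% and 0.663% of all genes under that setting). The untested genes were read in few counts: Hist1h3i had 8, 25 and 11 counts in LCS replicates 1 to 3 and 0, 0 and 1 in WT replicates 1 to 3. Hist4h4, the only gene of its locus, had 5, 19 and 24 counts in LCS and 4, 0 and 2 in WT replicates 1 to 3.

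How many members were called changed with single libraries. The count of 13 became 7 without LCS replicate 1, 7 without LCS replicate 3 and 23 without WT replicate 1, where 0.581%, 0.547% and 12.5% of all genes were called higher. The members called lower were 0, 0 and 1 (Hist2h2be) in these fits, where 0.0203%, 0.00675% and 7.68% of all genes were. Scaled by library totals, 13 members were called higher and 5 lower, where 0.647% and 78.8% of all genes were. WT replicate 1 had the highest ribosomal share of the WT libraries, 18.5% against 7.64% and 9.999%, and the highest histone sum; the part of that share in its histone values was not tested. The title numbers of WT replicates 1 and 2 lie apart from the rest with no stated meaning. Without both, which leaves 1 WT library, the median log2 fold change was 3.13 for the 39 tested members and 0.04 for all tested genes. Hist1h1e, Hist1h3f, Hist1h4h, Hist2h2ac, Hist2h2bb and Hist2h4 kept their calls under every alternative in which they were tested. Hist1h2ak lost its call without LCS replicate 3 (edgeR adjusted p = 0.0614) and Hist1h4c without LCS replicate 1 (0.0676). Hist1h4d lost it without LCS replicate 1 (0.0848) or 3 (0.0794). Hist1h3e lost it without LCS replicate 1, 2 or 3 or WT replicate 2 (0.0515 to 0.0714). Hist1h2bn lost it without LCS replicate 1 or 3 or WT replicate 2 or 3 (0.0661 to 0.0899), and Hist1h1d and Hist1h4f without any LCS library or WT replicate 2 or 3 (0.0598 to 0.122). Without WT replicates 1 and 2 together Hist1h2bn (0.0777) and Hist1h4f (0.149) lost it, and under library totals without the ribosomal RNA rows Hist1h1d (0.0737) and Hist1h4f (0.0523) did. The log2 fold changes of the 13 members called by edgeR stayed above 0 under every alternative in which they had an adjusted p. DESeq2 gave Hist1h2ak, Hist1h2bn and Hist1h4f no adjusted p and so did not call them. The 13 members that DESeq2 called higher included Hist1h4j, Hist1h4k and Hist3h2ba, which edgeR with all libraries did not call.

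Other genes of the histone pathway were read in the same fit. Of 19 genes of histone messenger RNA transcription and processing, among them Slbp, the stem-loop binding protein, and Npat, the activator of histone genes in S phase, 0 were called by edgeR, DESeq2 or limma-voom. In edgeR 1 was higher and 4 were lower at an unadjusted p under 0.05, and the median log2 fold change was -0.16. Of 20 histone chaperones, which carry histones to DNA, these tools called 0 as well (0 higher and 1 lower unadjusted in edgeR, median -0.06). Of 29 tested S phase genes edgeR and limma-voom called 0 and DESeq2 called 1 lower (2 higher and 1 lower unadjusted in edgeR, median 0.19). Their summed level was 124.3 to 145.5 CPM in LCS and 116.3 to 131.3 CPM in WT, which overlapped. Pcna, the clamp of the replication fork, had a log2 fold change of 0.39 (SE 0.17, edgeR adjusted p = 0.204). E2f1, an activator of S phase genes, had -0.66 (SE 0.19, edgeR adjusted p = 0.0912), with every LCS library below every WT library. Without WT replicate 1 edgeR called 2 of 30 S phase genes higher, 1 of 19 processing genes higher and 1 lower, and 1 of 20 chaperones lower. In that fit 12.5% of all tested genes were called higher and 7.68% lower.

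Replacement histones are made outside S phase from polyadenylated messenger RNAs. Of 10 tested, edgeR called 0 (5 higher and 0 lower unadjusted, median log2 fold change 0.62), limma-voom called 1 higher and DESeq2 called 4 higher. Over all 14539 tested genes limma-voom called 370 and DESeq2 called 937 higher. Without WT replicate 1 edgeR called 7 of 10 replacement histones higher, where 12.5% of all tested genes were. H2afz, the gene of the variant H2A.Z, had 153, 177 and 174 CPM in LCS (replicates 1 to 3) against 116, 88.4 and 60.5 CPM in WT (replicates 1 to 3) (log2 0.92, SE 0.22, edgeR adjusted p = 0.0585). Its groups did not overlap, and WT replicate 1 was again the highest WT library. RNAs that carry no poly(A) tail rose in 13 of 13 tested genes with a median of 4.54. Snord17, a small nucleolar RNA of that list, rose from 1.88 ± 0.516 to 57.3 ± 19.96 CPM (SD, n = 3, edgeR adjusted p = 7.6e-05). That list was chosen with results of these libraries known and is not independent evidence of its direction. The differences between these lists and the histone genes were not tested.

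**Figure D5:**
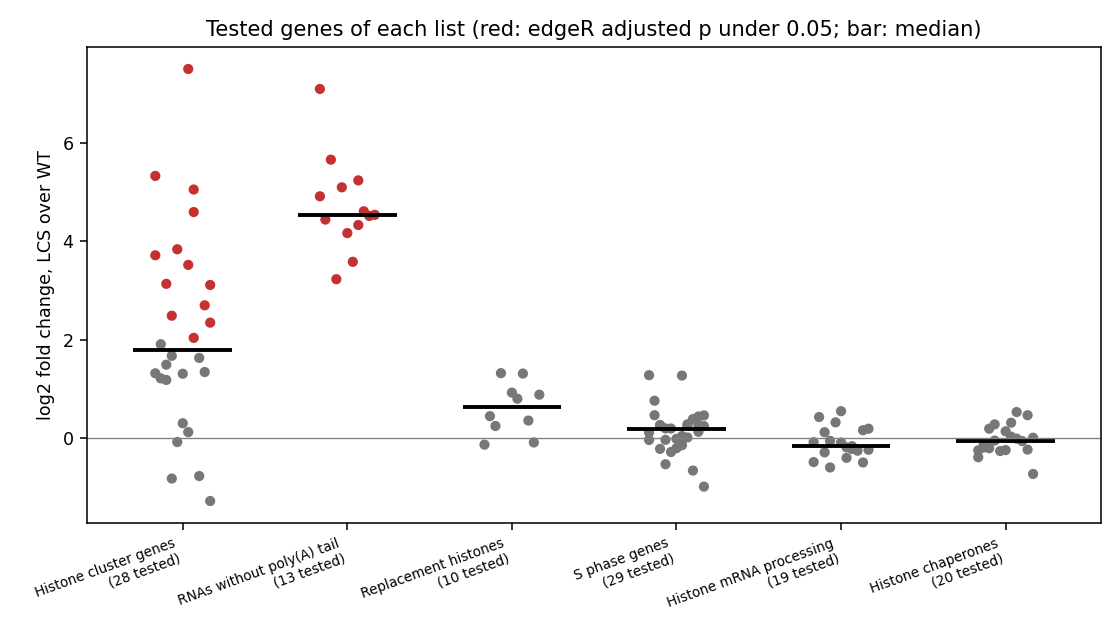
Fold change between LCS and WT in log2 units (vertical axis) of each tested gene of 6 lists, where red points passed edgeR at 0.05 after adjustment and black bars give medians. The medians were 1.79 for histone cluster genes and 4.54 for RNAs without a poly(A) tail, 0.62 for replacement histones and between -0.16 and 0.19 for the other 3 lists, in which no gene is red.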

How the data were processed

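The authors deposited 1 table of raw read counts per gene for 6 libraries, whose totals were 26123654 to 68036676 counts. Per the submitters' processing notes, the build was mm9 and the tools were HTSeq 0.9.0, Bowtie2 2.2.9, TopHat2 2.1.1, FastQC and bcl2fastq 2.20; no source used here gives the strand or multiple-match settings. Libraries were grouped by their source label, and replicates were numbered in accession order. Counts were fitted with edgeR 4.0.16 (filterByExpr, TMM, quasi-likelihood test, Benjamini-Hochberg adjustment over 14539 genes), with DESeq2 1.42.0 and limma-voom (limma 3.58.1) as alternatives, after a check on simulated counts. Other filters, scalings and left-out libraries were also tried; fits scaled by library totals were chosen after seeing the data. Named were all called members, the tested member of each type with the highest mean, the 4 uncalled members with the smallest p, the 3 genes with described polyadenylated transcripts, and up to 4 genes of each list; other members were named after their values were seen. Members and lists were chosen with earlier results of these data known. Of the 8 endothelial and stromal and 5 ductal markers tested, edgeR called 0 (0 and 1 higher at an unadjusted p under 0.05).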

Additional observations from a re-analysis of the deposited data

How the results depend on the processing

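The 13 members called higher became 20 with no filter on low counts, 8 of 16 tested with a minimum of 1 CPM in 3 libraries, and 7 to 23 when 1 library was left out. The 0 members called lower became 1 in DESeq2, 1 with no filter, 1 without WT replicates 1 and 2, 5 under scaling by library totals, and 0 to 1 when 1 library was left out. Over all genes, 300 were called higher and 21 lower, and these were 937 and 571 in DESeq2, 560 and 126 with no filter, 884 and 331 without WT replicates 1 and 2, 94 and 11461 under library totals, and 119 higher under library totals without the ribosomal RNA rows. With 1 library left out they were 81 to 1857 higher and 1 to 1142 lower. Calls were 93.5% higher with TMM and 0.814% under library totals. The ratio of summed histone levels was 1.21 under library totals and 2.17 to 3.48 with 1 library left out. Under library totals the ratio fell below 1 for H2A (0.798), H2B (0.859), the Hist2 locus (0.619) and the Hist3 locus (0.751), and the log2 fold change changed sign for Hist1h2be (-0.78) and Hist3h2a (-0.94, and -0.035 without the ribosomal RNA rows). For Hist2h2ab it changed sign with limma-voom (0.14), and ran from -0.41 to 0.75 with 1 library left out (0.16 without LCS replicate 3, 0.75 without WT replicate 3). The cause of these shifts was not tested. No paired analysis was possible because the labels give no replicate numbers shared between genotypes. For the low members, 3 libraries a group and few counts per library limit which differences can be detected.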
